A study of Mus musculus with 9 samples.

Results

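The comparison set 2 single-cell clones of a mouse pancreatic cancer line against the uncloned line they came from. It asked which autosomal genes differed from the parental line in both clones, with or without the edit. PDA530 Met is a metastatic mouse line of pancreatic ductal adenocarcinoma; its source was a liver lesion in a male KPC animal, on a mixed 129/SvJae and C57Bl/6 background. KPC mice are a genetically engineered model of pancreatic cancer. The KO clone, E4, had Zdhhc20 disrupted with CRISPR/Cas9. The control clone, C5, received the same guide RNAs by nucleofection, stayed unedited and still expresses Zdhhc20. The parental cells were, by the labels, neither nucleofected nor cloned, so nucleofection and single-cell cloning cannot be told apart here. All cells were harvested untreated. Each group had 3 libraries, 9 in all, and each clone group is 1 clone. The tests therefore measure the spread between replicate libraries, and the number of clones is 2. All 9 libraries were used. Of 13153 genes with enough counts to be tested, 12727 lay on the 19 autosomes and make up the comparison.

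A cancer cell line in culture is a mixture of lineages that differ in chromosome content, in DNA methylation and in which genes they keep open. Growing a line up from 1 cell replaces that mixture with the descendants of that cell, so a gene used by only some lineages can be silent in every cell of a clone. Clones picked independently are often set beside the parental line to see what they have in common.

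The libraries held 16525869 to 23192701 counts, and 99.88% or more of each library's counts fell in tested genes. Zdhhc20, the palmitoyltransferase that was targeted, was measured at 37.5, 33.9 and 42.5 CPM in the KO clone and 123, 85.8 and 120.2 CPM in the control clone. Parental values were 75.3, 81.2 and 90.7 CPM (CPM: counts in 1000000, after scaling between libraries). Zdhhc20 was below the parental line in the KO clone (log2 fold change -1.12, SE 0.15, edgeR adjusted p = 0.000585) and in the control clone it did not pass (log2 fold change 0.41, SE 0.15, adjusted p = 0.0714). All 11 ductal markers examined, among them keratins and Epcam, were measurable, and their summed level ran from 5102 to 5377 CPM in the KO clone, 7781 to 11659 CPM in the control clone and 7976 to 9459 CPM in the parental line. In the parental line the replicates agreed closely (median SD of log2 CPM 0.0839 over 10020 genes), as they did in the KO clone (0.0753); the control clone's were more spread (0.203). Control replicate 2 stood apart from the other control libraries for several genes named below, whose values are given library by library.

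Both clones differed from the parental line in the same direction at 730 autosomal genes, 5.74% of those tested. A gene was counted as shared when it passed an adjusted p of 0.05 in the mean of both clones against the parental line, in the KO clone alone and in the control clone alone, with 1 direction. The number depended on the libraries: it was 404, 380 and 355 without parental replicates 1, 2 and 3, 476 without KO replicate 1 and 1355 without control replicate 3. The mean contrast by itself called 2476 genes (19.5%; 7.16% higher and 12.3% lower), and 1746 of its calls were not shared. Of those, 1728 were called in that direction in 1 clone only, 48 of them being called in the opposite direction in the other clone. The remaining 18 were called in that direction in neither clone alone. The KO clone against the parental line called 31.4% of genes, the control clone 21.2%, and both of these comparisons use the same parental libraries. A further 403 genes were called in opposite directions in the 2 clones.

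Lowered genes outnumbered raised ones among the shared changes, and the larger the change the more so. There were 457 shared lower genes (3.59%) and 273 shared higher genes (2.15%). With a minimum mean of 5 CPM the split was nearer to even, at 281 lower and 230 higher. Without 1 parental library there were 263 to 273 lower and 92 to 131 higher, without 1 KO library 330 to 357 lower and 146 to 160 higher, and without control replicate 3 there were 775 lower and 580 higher. At 2-fold or more in both clones the counts were 204 lower (1.60%) and 50 higher (0.393%), and beyond 4-fold in both (a log2 fold change of 2) they were 105 lower and 7 higher. The 2-fold counts were 42 lower and 15 higher when genes needed a mean of at least 5 CPM. Without 1 parental library they were 164 to 175 lower and 22 to 32 higher, and without KO replicate 1 they were 196 lower and 33 higher. The median log2 fold change of the mean contrast was -1.17 over the shared lower genes and 0.64 over the shared higher ones, beside -0.00691 over all autosomal genes tested. Of the shared lower genes, 48 had 0 counts in at least 1 clone. With these set to the smallest change a floor of 3 counts allows, the lower quartile of the shared lower genes went from -2.998 to -2.905. A gene that is absent from both clones passes the low-count filter through its parental libraries alone, so it could enter only as lowered. Of the 730, 482 were not called between the clones themselves (adjusted p of 0.05 or more), 205 of them higher and 277 lower. The other 248 were called, and over all tested autosomal genes 42.8% were. Not being called does not show that the clones were equal. Of the 730, 686 were protein coding.

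**Figure D1:**
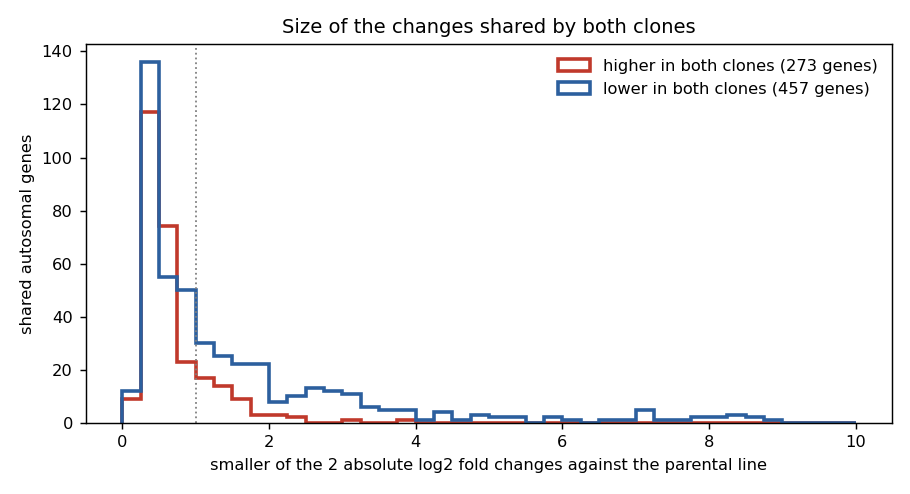
Histogram of the 730 autosomal genes changed in both clones; the x axis is the smaller of a gene's 2 absolute log2 fold changes against the parental line and the y axis the number of genes, with 273 higher genes in red and 457 lower genes in blue. The dotted line marks a 2-fold change; 50 higher and 204 lower genes lie to its right, and the tail of lower genes beyond a value of 2 holds 105 genes against 7, with values of genes at 0 counts resting on the fit's prior count.

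Counts of 0 or nearly 0 in both clones marked the most complete losses. A set of 32 shared genes had at most 3 counts summed over the libraries of each clone, 12 of them 0 counts in both. Of the 32, 5 were expressed at 5 CPM or more in the parental line. They were Neto2, an auxiliary subunit of kainate-type glutamate receptors, and Zfp422, a zinc-finger protein. The others were Slc43a3, a purine nucleobase transporter, Pogk, a nuclear protein derived from a pogo-type transposase, and Rasef, a Rab GTPase with EF-hand domains. No autosomal gene at 5 CPM or more in both clones had 3 counts or fewer in the parental libraries. Considered clone by clone against the same parental libraries, 28 genes with at least 5 parental CPM were at 3 counts or fewer in the KO clone and 5 in the control clone. In bulk RNA a gene carried by fewer cells and a gene carried at a lower level per cell cannot be told apart.

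The bases upstream of the RefSeq start (GRCm38.p6) of 2 lost genes and 1 raised gene are shown, 5′ to 3′ on the gene's strand. Mammalian DNA can be methylated at CpG, which was not measured here. The genes were chosen for having an exon-free stretch and need not be typical of their groups. CpG is in capitals (the letters CG, searched on the printed strand and so found on both). Only bases outside annotated exons of the gene are printed.
Neto2, chr8:85700925-85701174, minus strand: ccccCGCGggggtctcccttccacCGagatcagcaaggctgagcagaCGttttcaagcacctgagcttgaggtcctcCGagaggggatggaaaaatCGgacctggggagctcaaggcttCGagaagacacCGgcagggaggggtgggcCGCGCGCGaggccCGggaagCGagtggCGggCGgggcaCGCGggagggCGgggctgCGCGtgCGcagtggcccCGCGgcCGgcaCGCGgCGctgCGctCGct
Pogk, chr1:166409864-166410078, minus strand: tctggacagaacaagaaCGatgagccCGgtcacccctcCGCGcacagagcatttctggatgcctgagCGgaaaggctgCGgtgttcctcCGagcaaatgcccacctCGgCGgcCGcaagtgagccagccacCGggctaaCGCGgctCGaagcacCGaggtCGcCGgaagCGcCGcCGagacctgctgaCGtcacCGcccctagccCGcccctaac
Tigit, chr16:43664185-43664434, minus strand: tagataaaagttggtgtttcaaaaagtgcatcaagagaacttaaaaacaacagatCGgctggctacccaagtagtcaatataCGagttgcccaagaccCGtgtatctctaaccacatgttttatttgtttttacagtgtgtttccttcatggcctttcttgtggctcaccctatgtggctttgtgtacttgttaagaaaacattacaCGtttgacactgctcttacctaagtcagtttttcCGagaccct
The 250 bases before the start held 30 CpG at Neto2, a density reached by 5.94% of the 32851 promoters in the table and 11.3% of the matched tested genes. Those of Pogk held 24 (reached by 12% and 23.8% of the matched tested genes), of which 23 are in the 215 bases printed. Tigit, a lymphocyte receptor gene whose raised call in the control clone was narrow and was lost in 7 of 9 fits without 1 library, held 5 (reached by 55.6% and 89.7% of the matched tested genes). No methylation was measured, and the counts of CpG describe the sequence only. Promoters were matched for 9253 of the 12727 tested genes, with a median of 16 CpG. The median was 12 over the 143 matched of the 204 genes lowered 2-fold, 14 over the 32 matched of the 50 raised 2-fold and 20 over the 27 matched of the 32 lost genes. These medians describe the matched genes only, and no test was made.

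Neto2 (chr8:85636588-85700924, minus strand; protein coding, overlapping Mir8109 on the other strand) was at 0, 0 and 0.0584 CPM in the KO clone and 0, 0 and 0.105 CPM in the control clone. Parental values were 18.8, 17.9 and 15.1 CPM. Of its counts, 1 was left in the KO clone and 2 in the control clone, against 951 in the parental libraries. The KO clone was 966-fold lower (95% counting interval 173 to 38186) and the control clone 511-fold lower (95% counting interval 141 to 4223) (adjusted p = 4.79e-06 and 1.41e-05, edgeR quasi-likelihood test). The 6 clone libraries lay far under the 3 parental ones, with no overlap.

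Slc43a3 (chr2:84936579-84958509, plus strand) was at 8.96, 8.60 and 8.24 CPM in the parental line, with 0 counts in the KO clone and 1 in the control clone. The KO clone was at least 159.8-fold lower and the control clone 507-fold lower (95% counting interval 90.5 to 20064). Zfp422 (chr6:116624016-116628999, minus strand) stood at 8.67, 8.31 and 9.24 CPM in the parental line, with 1 count in the KO clone and 0 in the control clone. Both genes were steady across the parental libraries and missing from 5 of the 6 clone libraries.

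Pogk (chr1:166384622-166409863, minus strand; overlapping Tada1, so reads of the overlap cannot be assigned where strand was not used) was at 7.51, 6.42 and 5.00 CPM in the parental line, and 1 count was left in each clone. The counting ratios were 355-fold lower (95% counting interval 63.4 to 14079) in the KO clone and 376-fold lower (95% counting interval 67 to 14889) in the control clone. Rasef (chr4:73714579-73790994, minus strand) was at 5.59, 5.60 and 5.47 CPM in the parental line and again 1 count was left in each clone (309-fold lower (95% counting interval 55 to 12234) and 326-fold lower (95% counting interval 58.2 to 12938)). Intervals cover counting error only.

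Below 5 parental CPM the other 27 genes at 3 counts or fewer in both clones included Homer2, a synaptic scaffold (3.09 ± 0.125 CPM in the parental line, SD, n = 3; 0 counts in both clones). Cdcp1, a Src-linked transmembrane protein of carcinoma cells, was at 2.08 ± 0.433 CPM in the parental line and at 0 counts in both clones, at least 38.9-fold lower and at least 41.2-fold lower. Lifr, the leukaemia inhibitory factor receptor, was at 1.13 ± 0.296 CPM there, with 0 and 3 counts. These 3 were picked from the 27 after their values were seen. Of all 32 genes, 30 stayed shared whichever single library was left out; the exceptions were Dclk1 (lost in 3 of 9 such fits, largest adjusted p 0.0918) and Stk32a (lost in 4 of 9, largest adjusted p 0.0786).

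Genes were then ranked by the smaller of their 2 changes, among protein-coding genes changed at least 2-fold in both clones, with a level of at least 5 CPM on the higher side and no overlap between clone and parental libraries. By this rule 66 lowered and 12 raised genes passed. Over all tested autosomal genes, 8.60% were lower and 6.53% higher without overlap. The 12 raised genes and 11 of the first 12 lowered ones are described next.

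**Figure D2:**
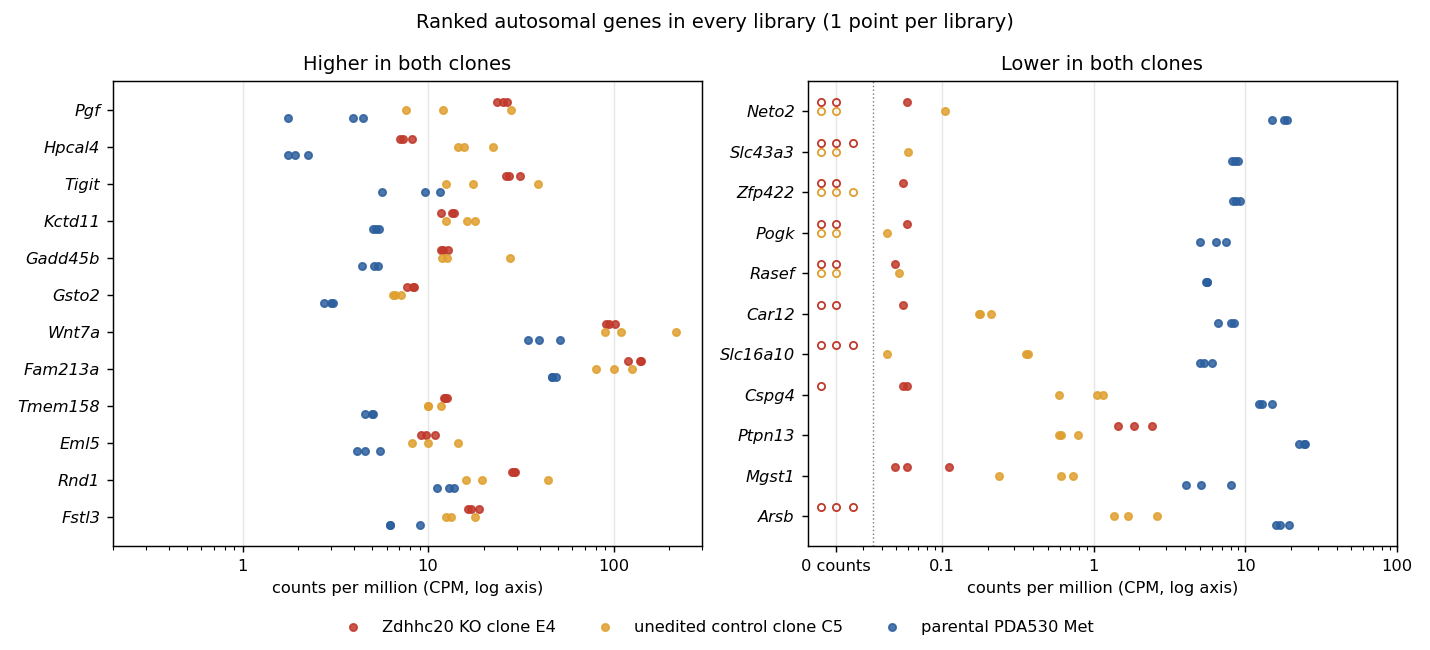
Level of the 12 raised (left) and 11 of the first 12 lowered (right) autosomal genes in each of the 9 libraries, as CPM on a log axis; each point is 1 library, red for the KO clone, yellow for the control clone and blue for the parental line, and open points left of the dotted line are libraries with 0 counts. In every gene shown the 6 clone libraries lie on 1 side of the 3 parental ones; Neto2, Slc43a3, Zfp422, Pogk and Rasef are at or next to 0 in both clones.

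After the 5 lost genes came Car12, a membrane carbonic anhydrase that hydrates carbon dioxide at the cell surface, at 0, 0.0556 and 0 CPM in the KO clone and 0.175, 0.178 and 0.210 CPM in the control clone. Parental values were 6.65, 8.02 and 8.41 CPM. That is a ratio of 40.7 for the control clone, while the KO clone was 423-fold lower (95% counting interval 75.6 to 16766). Slc16a10, a transporter of aromatic amino acids, had 0 counts in the KO clone (at least 101-fold lower than the parental 5.06 to 6.06 CPM) and 0.0436, 0.357 and 0.367 CPM in the control clone. Cspg4, the NG2 proteoglycan, fell from 12.3, 13 and 15.1 CPM to 1.05, 0.595 and 1.15 CPM in the control clone and to 2 counts in all in the KO clone. In each of these 3 genes the KO clone was the lower clone.

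Ptpn13, a large cytoplasmic tyrosine phosphatase, was instead lowest in the control clone. It was at 2.44, 1.84 and 1.46 CPM in the KO clone and 0.611, 0.595 and 0.787 CPM in the control clone. Parental values were 24.9, 24.3 and 22.7 CPM. Log2 fold changes were -3.63 (SE 0.18) in the KO clone and -5.16 (SE 0.21) in the control clone (adjusted p = 3.27e-06 and 3.48e-06). Mgst1, a membrane-bound glutathione transferase, was at 0.0488, 0.111 and 0.0584 CPM in the KO clone and 0.611, 0.238 and 0.735 CPM in the control clone. Parental values were 4.09, 5.13 and 8.06 CPM. Arsb, the lysosomal arylsulfatase that breaks down dermatan sulfate, had 0 counts in the KO clone. The control clone held 2.62, 1.37 and 1.68 CPM against 16, 17 and 19.4 CPM in the parental line, a ratio of 8.87. The first 12 lowered genes all stayed shared in the 9 fits that left out 1 library; with both clones pooled as 1 group, 11 of them were called and Arsb was not.

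Some lowered genes outside the first 12 were abundant in the parental line; these 5 passed the same rule and were singled out after their values were seen. App, the amyloid precursor protein, was at 6.54, 6.57 and 5.78 CPM in the KO clone and 55.2, 47.6 and 43.9 CPM in the control clone. Parental values were 139.5, 137 and 144 CPM. On the log2 scale the changes were -4.48 (SE 0.11) in the KO clone and -1.52 (SE 0.09) in the control clone. Bicc1, an RNA-binding protein of epithelial tubules, was at 45.7, 44.6 and 54.2 CPM in the parental line, 7.38, 3.21 and 7.19 CPM in the control clone and 0.293, 0.111 and 0.117 CPM in the KO clone. Both were lowest in the KO clone, and neither was called with both clones pooled as 1 group. Cacna2d1, an auxiliary subunit of voltage-gated calcium channels, was at 10.8, 10.7 and 9.93 CPM in the KO clone and 11.3, 10.4 and 8.56 CPM in the control clone. Parental values were 38.7, 36.2 and 33.5 CPM. Against the parental line it changed by a log2 fold of -1.78 (SE 0.12) in the KO clone and -1.84 (SE 0.12) in the control clone. Tgm2, the tissue transglutaminase, was at 11 to 13.3 CPM in the KO clone, 17.3 to 24.4 CPM in the control clone and 45.6 to 49 CPM in the parental line. Cyp1b1, a cytochrome P450 of xenobiotic and steroid metabolism, was at 17.3, 32.7 and 14 CPM in the KO clone and 24.5, 20.8 and 15.7 CPM in the control clone. Parental values were 84.8, 98.3 and 99.9 CPM. Log2 fold changes were -2.15 (SE 0.29) in the KO clone and -2.21 (SE 0.29) in the control clone (adjusted p = 0.000581 and 0.00103). Between the clones the difference was 0.06 (SE 0.28).

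Pgf, placental growth factor, a ligand of the VEGF receptor Flt1, headed the raised genes (chr12:85166635-85177790, minus strand). It was at 26.5, 23.5 and 25.3 CPM in the KO clone and 7.59, 28 and 12 CPM in the control clone. Parental values were 4.43, 3.95 and 1.77 CPM. The lowest clone library, control replicate 1, was still above the highest parental one, and control replicate 2 was the highest of all. On the log2 scale the changes were 2.88 (SE 0.47) in the KO clone and 2.20 (SE 0.47) in the control clone (adjusted p = 0.00183 and 0.0109).

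Hpcal4, a neuronal calcium sensor (chr4:123183227-123194701, plus strand), was at 7.08, 8.23 and 7.30 CPM in the KO clone and 15.7, 14.6 and 22.4 CPM in the control clone. Parental values were 1.93, 2.24 and 1.77 CPM. Against the parental line it changed by a log2 fold of 1.93 (SE 0.20) in the KO clone and 3.15 (SE 0.20) in the control clone (adjusted p = 0.000167 and 2.61e-05), larger in the control clone. Kctd11, an adaptor of the Cullin-3 ubiquitin ligase that restrains Hedgehog signalling, was at 11.7, 13.4 and 13.7 CPM in the KO clone and 16.3, 12.4 and 17.8 CPM in the control clone. Parental values were 5.44, 5.25 and 5.06 CPM (adjusted p = 0.000294 and 0.000248). Gsto2, an omega-class glutathione transferase, rose from 2.75, 3.01 and 3.06 CPM to 7.11, 6.66 and 6.46 CPM in the control clone and 8.40, 7.68 and 8.29 CPM in the KO clone. For both genes every clone library was above every parental one.

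Fam213a, a peroxiredoxin-like protein, was among the more abundant raised genes, at 138, 119 and 139.7 CPM in the KO clone and 101, 80.0 and 126 CPM in the control clone. Parental values were 46.5, 46.4 and 48.8 CPM. Log2 fold changes were 1.49 (SE 0.15) in the KO clone and 1.12 (SE 0.15) in the control clone. Tmem158, a membrane protein first described as induced by oncogenic Ras, was at 12.1 to 12.6 CPM in the KO clone, 9.93 to 11.7 CPM in the control clone and 4.59 to 5.06 CPM in the parental line. Eml5, a microtubule-associated protein whose gene overlaps Zc3h14, had log2 fold changes of 1.07 (SE 0.22) in the KO clone and 1.20 (SE 0.22) in the control clone. Fstl3, a secreted inhibitor of activin and myostatin, was at 16.5, 18.7 and 17.1 CPM in the KO clone and 12.5, 18 and 13.2 CPM in the control clone. Parental values were 9.01, 6.25 and 6.24 CPM. None of these 4 lost its shared call when a single library was left out.

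As for Pgf, control replicate 2 was well above the other control libraries for 4 more of the 12 raised genes. Wnt7a, a Wnt ligand, was at 90.5, 101 and 95 CPM in the KO clone and 90.1, 216 and 109 CPM in the control clone. Parental values were 51.3, 39.5 and 34.5 CPM. Its call was lost in 1 of the 9 fits that left out a library, the one without parental replicate 3 (adjusted p = 0.0550). Gadd45b, a stress-induced regulator of kinase signalling, was at 12, 11.7 and 12.8 CPM in the KO clone and 12.7, 27.7 and 11.9 CPM in the control clone. Parental values were 5.35, 5.13 and 4.41 CPM, and its call was kept in all 9 such fits. Tigit, an inhibitory receptor known from T cells and natural killer cells, was at 27.2, 26.4 and 31.1 CPM in the KO clone and 12.4, 39 and 17.5 CPM in the control clone. Parental values were 11.6, 9.67 and 5.65 CPM. Rnd1, a small GTPase that stays bound to GTP, was at 28.2, 29.2 and 29.4 CPM in the KO clone and 16, 44.2 and 19.4 CPM in the control clone. Parental values were 13.8, 12.9 and 11.2 CPM. Tigit and Rnd1 passed narrowly in the control clone (adjusted p = 0.0394 and 0.0442). Without 1 library Tigit was lost in 7 of 9 fits (any KO or parental library, or control replicate 2; largest adjusted p 0.123). Rnd1 was lost in 6 (any KO or parental library; largest adjusted p 0.129). Both calls were also lost with limma voom.

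Raised genes beyond 4-fold in both clones were few and, other than Pgf, low in abundance: Ppbp, the platelet chemokine CXCL7, Nt5c1a, Oxct2b, Fgfbp1, Mmp10 and Npm2. Ppbp was at 4.93, 2.84 and 4.67 CPM in the KO clone and 2.23, 8.39 and 1.78 CPM in the control clone. Parental values were 0.289, 0.413 and 0.177 CPM. Nt5c1a, a cytosolic nucleotidase, was at 2.10, 2.06 and 2.28 CPM in the KO clone and 1.70, 2.26 and 2.10 CPM in the control clone. Parental values were 0.193, 0.177 and 0.353 CPM. The log2 fold changes of Nt5c1a were 3.13 (SE 0.32) in the KO clone and 3.04 (SE 0.32) in the control clone (adjusted p = 0.000135 and 0.000364). Leaving out 1 library ended the shared call of Fgfbp1 in 6 of 9 fits (any KO or parental library; largest adjusted p 0.137), of Npm2 in 4 (KO replicate 1, control replicate 1, parental replicates 2 and 3; 0.0780) and of Mmp10 in 2 (parental replicates 1 and 3; 0.0609).

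The gene lists for pathways of this tissue held few shared members each. Over all tested autosomal genes 5.74% were shared; a list of 30 genes at that share would hold between 1 and 2. The cell cycle list (32 genes tested), the unfolded protein and integrated stress response (30), the chemokines and cytokines (20), the ribosomal proteins (44), the clustered protocadherins (16), the palmitoyltransferases and depalmitoylases (26) and the interferon-stimulated and DNA-sensing genes (13) held 0 genes shared by edgeR. These lists did not hold Ppbp, a chemokine, or Il7, a cytokine, which were shared, Ppbp as higher and Il7 as lower. In the mean contrast alone, which called 19.5% of all tested genes, these lists had 3, 2, 8, 4, 3, 4 and 4 called members, in the same order. At an unadjusted p under 0.05 in all 3 contrasts, which 10.6% of all tested genes met, they had 2, 0, 2, 1, 1, 3 and 1 shared members. DESeq2, which called 7.12% of all tested genes shared, gave 1, 0, 1, 0, 1, 1 and 1 (Cdkn2c, Cxcl10, Pcdhga5, Lypla1 and Ifih1), and limma voom 0, 0, 0, 0, 1, 1 and 1.

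Immediate early genes and ERK outputs held the most shared members, 7 of 34 tested, 5 lower and 2 higher, with a median log2 fold change of -0.07 in the mean contrast. Immediate early genes are transcription factors that growth factors induce within minutes through ERK and serum response factor. Egr1 was at 162, 126 and 149 CPM in the KO clone and 3.49, 3.87 and 5.46 CPM in the control clone. Parental values were 230.3, 233 and 269 CPM. Its log2 fold changes were -0.75 (SE 0.14) in the KO clone and -5.84 (SE 0.18) in the control clone, the control clone being by far the lower. Ier2 was at 76.1, 73.8 and 74.9 CPM in the KO clone and 24.8, 28.1 and 26.2 CPM in the control clone. Parental values were 100.5, 106 and 127 CPM, and the control clone was again lowest. Egr2, Fos and Junb also fell in both clones. Egr2 fell to 0.835 to 0.993 CPM in the KO clone and 0 to 0.157 CPM in the control clone from 1.69 to 3.18 CPM. Fos fell to 18.5 to 25.8 and 3.99 to 10.3 CPM from 34.2 to 40.6 CPM, and Junb fell to 111 to 132 and 135 to 152 CPM from 174 to 188 CPM. Clone by clone the list's median was 0.42 in the KO clone, with 14 genes higher and 8 lower, and -0.27 in the control clone, with 2 higher and 13 lower. Over all tested autosomal genes the KO clone called 13.1% higher and 18.3% lower, and the control clone 10.4% higher and 10.8% lower.

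The 2 raised members were Fosl2, a Fos-family transcription factor, and Dusp4, a nuclear phosphatase that switches off MAP kinases. Fosl2 was at 114, 98.3 and 109 CPM in the KO clone and 84.2, 108 and 97.5 CPM in the control clone. Parental values were 61.2, 58.9 and 60.8 CPM. Dusp4 was at 74.8, 77.2 and 75.3 CPM in the KO clone and 52.5, 75.5 and 77.8 CPM in the control clone. Parental values were 47, 45.2 and 41.4 CPM. Log2 fold changes of Fosl2 were 0.83 (SE 0.10) in the KO clone and 0.68 (SE 0.10) in the control clone. Those of Dusp4 were 0.77 (SE 0.14) in the KO clone and 0.62 (SE 0.14) in the control clone. With 1 library left out, Egr2 lost its shared call in 5 of 9 fits (any KO library, parental replicates 2 and 3; largest adjusted p 0.155). Fos lost it in 7 (all but control replicates 2 and 3; 0.154) and Junb in 2 (parental replicates 1 and 3; 0.0660). Egr1, Ier2, Fosl2 and Dusp4 kept theirs in these 9 fits; with both clones pooled as 1 group, Egr1 and Ier2 were not called.

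Members of the TGF-beta and BMP pathway were shared in 6 of 36 cases, Fstl3 and Bmp4 higher and Id2, Smad9, Tgfb2 and Ltbp4 lower. The list's median was -0.08 in the mean contrast, 0.05 in the KO clone and -0.23 in the control clone. The pathway's ligands signal through Smad proteins, Id2 is a transcriptional target of its BMP branch, and Ltbp4 binds latent TGF-beta in the matrix. Id2 was at 95.2, 88.5 and 103 CPM in the KO clone and 156, 108 and 197 CPM in the control clone. Parental values were 231, 235 and 297 CPM. Bmp4, a BMP ligand, was at 17.2, 22.4 and 18.8 CPM in the KO clone and 21.6, 39 and 21 CPM in the control clone. Parental values were 12, 10.5 and 9.06 CPM. Tgfb2, a TGF-beta ligand, was at 0.830, 0.890 and 1.17 CPM in the KO clone and 0.917, 0.833 and 0.892 CPM in the control clone. Parental values were 2.26, 1.53 and 2.24 CPM. Smad9, a receptor-activated Smad of the BMP branch, had 48 counts in the parental libraries, 0 in the KO clone and 5 in the control clone. Fstl3 alone of the 6 kept its call in every fit that left out a library. The others lost it in 4 (Bmp4), 4 (Id2), 6 (Smad9), 4 (Tgfb2) and 4 (Ltbp4) of 9, each of them without parental replicate 3 among others. Their largest adjusted p values were 0.0799, 0.0929, 0.114, 0.0655 and 0.122.

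Targets and partners of YAP and TEAD were shared in 5 of 26 cases, with Gadd45b higher and Nuak2, Amotl1, Tead2 and Tgfb2 lower (median 0.10). YAP is a transcriptional co-activator held back by the Hippo kinases, and Amotl1 is an angiomotin that keeps it in the cytoplasm. Amotl1 was at 23.5, 23.6 and 24.2 CPM in the KO clone and 29.9, 31.9 and 42 CPM in the control clone. Parental values were 71.9, 70.7 and 62.5 CPM. On the log2 scale the changes were -1.52 (SE 0.13) in the KO clone and -0.98 (SE 0.13) in the control clone (adjusted p = 5.59e-05 and 0.000990). Nuak2, a kinase and YAP target, was at 2.88, 2.89 and 2.28 CPM in the KO clone and 2.49, 2.80 and 2.41 CPM in the control clone. Parental values were 5.06, 4.95 and 5.53 CPM. Tead2, a DNA-binding partner of YAP that overlaps Cd37, changed by -0.35 (SE 0.10) in the KO clone and -0.88 (SE 0.10) in the control clone, and its call was lost without KO replicates 2 or 3 or parental replicates 1 or 2 (largest adjusted p 0.10).

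Notch genes were shared in 3 of 18 cases, all lower: the ligand Jag1 and the target repressors Hes1 and Hey1 (median over the list 0.05 in the mean contrast, -0.15 in the KO clone and -0.12 in the control clone). Hey1 was at 1.76, 2.06 and 1.46 CPM in the KO clone and 1.48, 0.654 and 1.26 CPM in the control clone. Parental values were 4.72, 4.95 and 5.94 CPM. Against the parental line it changed by a log2 fold of -1.56 (SE 0.28) in the KO clone and -2.17 (SE 0.29) in the control clone (adjusted p = 0.00260 and 0.00114). Hes1 was at 39.8, 39.3 and 35.7 CPM in the KO clone and 41.3, 38.2 and 37.2 CPM in the control clone. Parental values were 46.6, 47.1 and 56.6 CPM. Jag1 was at 90.3, 94.8 and 90.5 CPM in the KO clone and 98.6, 101 and 103 CPM in the control clone. Parental values were 119, 115 and 129 CPM. Both changes were small beside that of Hey1. Hes1 lost its call without KO replicate 3 or parental replicate 3 (largest adjusted p 0.0885), and Jag1 without KO replicate 3, control replicate 1 or parental replicates 1 or 3 (0.0875). In the Wnt list 3 of 24 were shared, Wnt7a higher and the receptors Fzd6 and Lgr4 lower. Fzd6 was at 40.1, 34.5 and 38.7 CPM in the KO clone and 23.9, 27.2 and 29.4 CPM in the control clone. Parental values were 49.6, 50.3 and 50.5 CPM. Lgr4, an R-spondin receptor, was at 21.6, 26.9 and 22 CPM in the KO clone and 59.2, 34.7 and 64.9 CPM in the control clone. Parental values were 75.5, 79.9 and 109 CPM. It lost its call in 7 of 9 fits (all but control replicates 2 and 3; largest adjusted p 0.153).

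**Figure D3:**
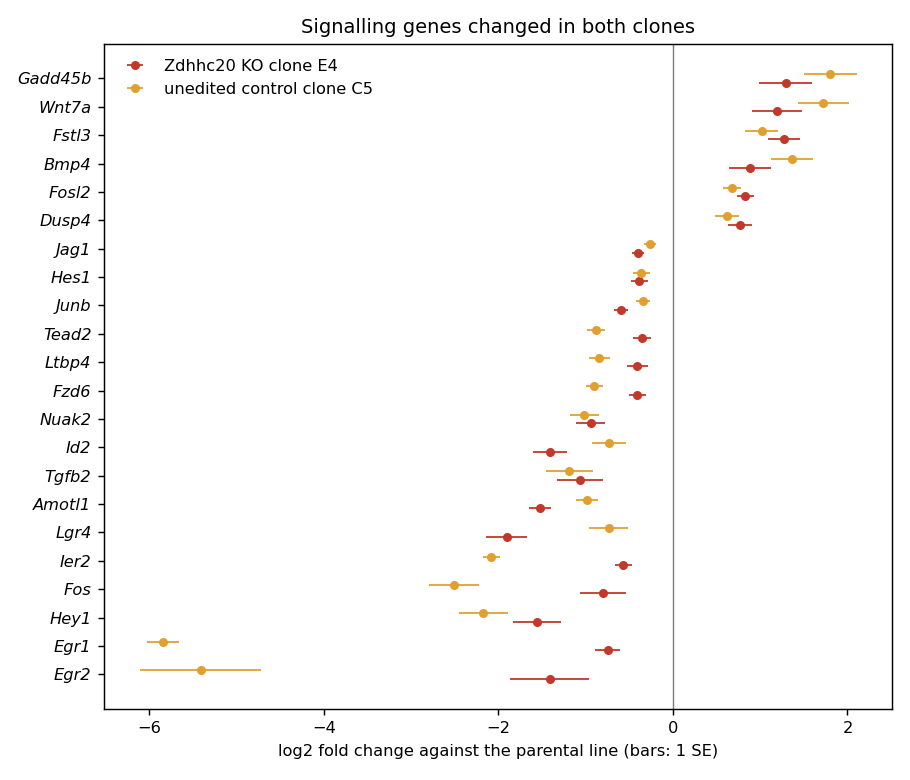
Log2 fold change against the parental line (x axis) of 22 of the 23 shared genes of the immediate early, TGF-beta, YAP, Notch and Wnt lists, in the KO clone (red) and the control clone (yellow); bars are 1 standard error, and Smad9, the other shared gene, with 0 counts in the KO clone, is not drawn. On the right of 0 lie 6 genes and on its left 16. Egr1, Egr2, Fos and Ier2 lie much further left in the control clone, while Fosl2, Dusp4, Nuak2 and Tgfb2 have nearly equal values in both clones.

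Epithelial and ductal genes held 2 shared members of 25 in the epithelial list, Pkp3 among them, both lower. That list's median was -0.28 in the mean contrast, -0.53 in the KO clone and -0.11 in the control clone. Pkp3, a desmosomal plakophilin, was at 3.91, 5.01 and 4.38 CPM in the KO clone and 6.98, 6.96 and 5.72 CPM in the control clone. Parental values were 9.78, 8.43 and 10.7 CPM. Its call was lost without KO replicate 3, control replicate 1 or parental replicates 1 or 3 (largest adjusted p 0.104). The 11 ductal markers had a median of -0.53 in the KO clone, with 1 called higher and 7 lower. In the control clone it was 0.13, with 2 higher and 2 lower. Over all tested autosomal genes the KO clone called 13.1% higher and 18.3% lower, and the control clone 10.4% and 10.8%. Of these markers Cftr, the apical chloride channel, was shared as lower. It was at 1.20, 1.41 and 1.77 CPM in the parental line, 0.195, 0.111 and 0.292 CPM in the KO clone and 0 counts in the control clone (at least 28.3-fold lower).

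The mesenchymal list had 2 shared members of 14, both lower. In the KO clone 5 members were called higher and 5 lower (median 0.07), beside 13.1% and 18.3% over all tested autosomal genes. In the control clone 0 were higher and 5 lower (median -0.12), beside 10.4% and 10.8%. Sparc, a matrix-associated glycoprotein, was at 10.4, 8.68 and 9.87 CPM in the KO clone and 22, 16.1 and 24.4 CPM in the control clone. Parental values were 33.7, 34.2 and 39.3 CPM. Twist1, a transcription factor of epithelial-mesenchymal transition, was at 1.93, 2.59 and 2.24 CPM in the parental line, 0.436, 0.416 and 0.157 CPM in the control clone and 0 counts in the KO clone. Among matrix genes (2 of 21) Col4a2, a basement membrane collagen overlapping Col4a1, was higher at 0.47 (SE 0.14) in the KO clone and 0.70 (SE 0.14) in the control clone on the log2 scale and Lamc1, a laminin chain, lower at -0.87 (SE 0.09) in the KO clone and -0.36 (SE 0.09) in the control clone. Col4a2 lost its call without any KO or any parental library (largest adjusted p 0.109), and Lamc1 without control replicate 1 or parental replicates 2 or 3 (0.0775). The summed level of 12 fibroblast and stellate markers was 0.934 to 1.72 CPM in the KO clone, 3.93 to 9.97 CPM in the control clone and 3.42 to 4.19 CPM in the parental line, with 7 of the 12 (Col1a2, Col3a1, Dcn, Dpt, Lum, Pdpn and Thy1) at 0 counts in all libraries.

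Metabolic lists held 1 to 3 shared genes each. Hk2, a hexokinase at the entry to glycolysis, was shared as raised, and Car12 as lowered, among 30 hypoxia and glycolysis genes. Hk2 was at 116, 111 and 110.4 CPM in the KO clone and 106, 129 and 138 CPM in the control clone. Parental values were 73.9, 61.5 and 53.1 CPM. Log2 fold changes were 0.84 (SE 0.13) in the KO clone and 0.98 (SE 0.13) in the control clone. Cyp51, a sterol demethylase, was the 1 shared gene of 24 cholesterol genes, with log2 fold changes of 0.67 (SE 0.19) in the KO clone and 0.91 (SE 0.19) in the control clone. Of the 24, the KO clone had 4 called higher and 2 lower, beside 13.1% and 18.3% over all tested autosomal genes. The control clone had 5 higher and 1 lower, beside 10.4% and 10.8%. The fits without KO replicates 1 or 3 or any parental library lost the call of Cyp51 (largest adjusted p 0.0847). Of 34 NRF2 targets and drug-metabolising genes, 3 were shared. Abcb1b, a drug efflux pump, was higher, and Cyp1b1 and Gclc, the catalytic subunit for glutathione synthesis, were lower. Abcb1b was at 168, 162 and 175 CPM in the KO clone and 121, 156 and 98.5 CPM in the control clone. Parental values were 85.6, 80.9 and 75.6 CPM. Gclc was at 53.9, 48.7 and 51.4 CPM in the KO clone and 78.3, 64.1 and 103 CPM in the control clone. Parental values were 108, 109 and 152 CPM. It kept its call only without control replicate 3 (largest adjusted p 0.148); Abcb1b lost its call without parental replicates 2 or 3 (0.0554). That list's median was -0.45 in the mean contrast, -0.85 in the KO clone and -0.03 in the control clone.

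In the p53 list 2 of 28 genes were shared, Perp, a desmosome-associated p53 target, and Pmaip1, the pro-apoptotic protein Noxa, both higher. Perp was at 160.0, 172 and 173 CPM in the KO clone and 183, 259 and 193 CPM in the control clone. Parental values were 127, 119.7 and 136 CPM. Pmaip1 was at 42.8, 47.3 and 43.1 CPM in the KO clone and 62.1, 45.7 and 69.2 CPM in the control clone. Parental values were 30.6, 32.3 and 36.1 CPM. Perp was lost without any KO or parental library (largest adjusted p 0.112), and Pmaip1 without any library but control replicates 2 and 3 (0.145). Pmaip1 was also lost under total-count scaling, a mean of at least 5 CPM and limma voom. The angiogenic list (20 tested) held Pgf and Sema3e higher and Pdgfc lower. Sema3e, a secreted semaphorin, was at 181, 167 and 179.8 CPM in the KO clone and 199, 209 and 206 CPM in the control clone. Parental values were 149, 150.5 and 145 CPM. Pdgfc, a platelet-derived growth factor, was at 76, 83.3 and 78.6 CPM in the KO clone and 80.2, 57.9 and 62.8 CPM in the control clone. Parental values were 96.4, 108 and 101 CPM. Sema3e was lost without KO replicates 1 or 3 or parental replicates 2 or 3 (0.0716) and Pdgfc without any KO or parental library (0.147). Among 12 imprinted genes tested Igf2r, the clearance receptor for Igf2, fell in both clones and kept its call in all 9 fits. It was at 19.4, 17.6 and 18.2 CPM in the KO clone and 15.4, 15.8 and 20.2 CPM in the control clone. Parental values were 35.8, 34.2 and 35.5 CPM.

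Hepatocyte markers bear on a line taken from a liver metastasis. Of 10 markers 1 was tested, Ttr, the plasma transthyretin, at 1.01, 0.648 and 2.35 CPM in the parental line, 0.262, 0.0595 and 0.262 CPM in the control clone and 0 counts in the KO clone, and 6 were at 0 counts in all libraries. The summed level of the 10 was 1.12 to 3.06 CPM in the parental line, 0.119 to 0.525 CPM in the control clone and 0.0977 to 0.175 CPM in the KO clone. Ttr lost its shared call without control replicate 1 or parental replicates 1 or 3 (largest adjusted p 0.0827). Acinar markers (1 of 10 tested, Cela1) held no shared gene; their summed level was 1.502 to 1.58 CPM in the KO clone, 4.64 to 7.87 CPM in the control clone and 2.02 to 3.65 CPM in the parental line, highest in the control clone, where Cela1 was called higher. Leukocyte, endothelial and islet markers (1, 0 and 0 genes tested) held no shared gene, and their summed levels stayed at or below 3.81 CPM in all libraries.

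By chromosome the shared genes were spread unevenly. Chromosome 1 held 66 lowered genes and 1 raised gene of 762 tested (8.79% shared), where the genome-wide shares were 3.59% lower and 2.15% higher. Chromosome 9 held 58 lowered and 7 raised of 748, chromosome 13 held 20 and 0 of 542, and chromosome 19 held 29 and 7 of 462. Raised genes outnumbered lowered ones on 6 chromosomes: on chromosome 17, with 27 raised and 7 lowered of 687, on chromosome 15 (30 and 13 of 523), on chromosome 12 (26 and 13 of 466), on chromosome 14 (15 and 3 of 437), on chromosome 11 (26 and 14 of 1030) and on chromosome 18 (10 and 8 of 339).

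**Figure D4:**
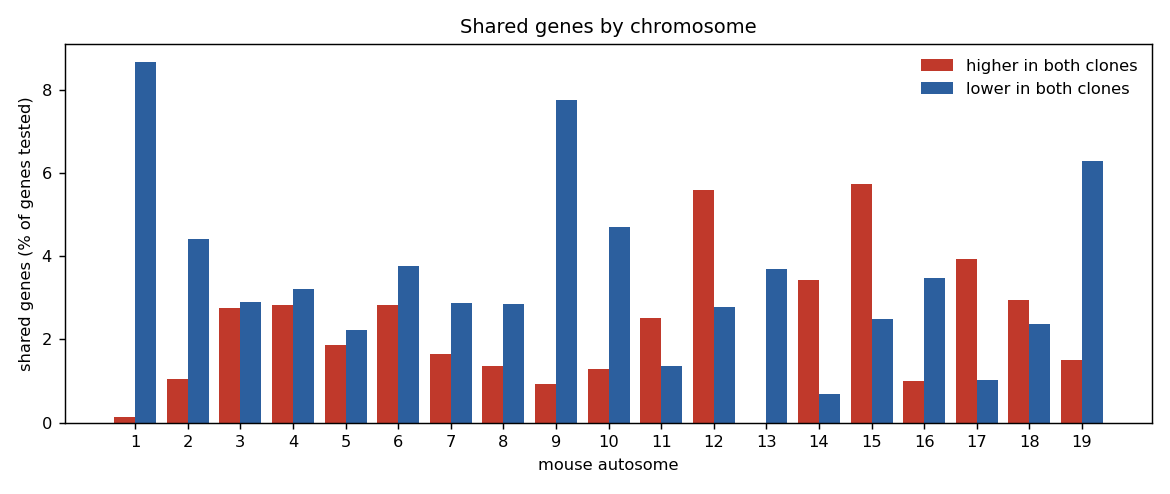
Percentage of the tested genes of each mouse autosome that were higher (red) or lower (blue) than the parental line in both clones. Chromosomes 1, 9 and 19 have the tallest blue bars (8.66%, 7.75% and 6.28%), chromosomes 15 and 12 the tallest red ones (5.74% and 5.58%), and chromosome 13 has no red bar.

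Most genes of chromosome 1 were lower in the mean of both clones, by a small amount. The median log2 fold change of its genes was -0.14 in the KO clone and -0.17 in the control clone, and 73.4% of them were lower in the mean contrast, against 51.1% over all autosomes. In each of the 2 clones at once, 48.95% of its genes were lower, against 26.7% over all autosomes. Library by library the median of its genes relative to the parental mean was -0.14, -0.13 and -0.13 in the KO clone and -0.20, -0.22 and -0.17 in the control clone, while the parental libraries were within 0.01 of 0. Cut into 4 parts by gene order, the chromosome gave medians of -0.14, -0.19, -0.18 and -0.12 in the mean contrast. By clone they were -0.06, -0.22, -0.17 and -0.10 in the KO clone and -0.20, -0.16, -0.16 and -0.18 in the control clone, all below 0. Under other scalings of the libraries the median of the mean contrast was -0.16 (DESeq2 size factors) and -0.19 (total counts).

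The shared genes of chromosome 1 did not all follow that small shift in size. Prex2, Atp6v1h and Serpinb5 passed the ranking rule outside the first 12 and were picked after their values were seen. Prex2, a Rac activator, was at 2.30, 2.62 and 2.51 CPM in the KO clone and 2.66, 1.61 and 2.26 CPM in the control clone. Parental values were 15.2, 15.9 and 13.6 CPM. Atp6v1h, a subunit of the proton-pumping vacuolar ATPase that overlaps Rgs20, was at 9.67, 9.35 and 10.0 CPM in the KO clone and 12.3, 10.1 and 14.7 CPM in the control clone. Parental values were 26.1, 26.6 and 28.7 CPM. Serpinb5, maspin, was at 4.20, 8.46 and 5.02 CPM in the KO clone and 14.8, 11.3 and 12.8 CPM in the control clone. Parental values were 25, 26.4 and 26.9 CPM. With both clones pooled as 1 group, Prex2 and Atp6v1h were called and Serpinb5 was not. The single raised gene was Cflar, a brake on caspase 8, at 75.5, 72.2 and 76.2 CPM in the KO clone and 64.5, 108 and 79.6 CPM in the control clone. Parental values were 56.9, 51.6 and 50.1 CPM. On the log2 scale the changes were 0.50 (SE 0.16) in the KO clone and 0.67 (SE 0.16) in the control clone, and the call was lost without any KO or any parental library (largest adjusted p 0.119). Across the alternatives the chromosome's lowered genes numbered 32 to 112 and its raised ones 0 to 5; the lowest count, 32, came without parental replicate 1 and without parental replicate 3, and the highest, 112, without control replicate 3.

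Some other chromosomes moved in 1 clone more than in the other. Chromosome 9 had a median of -0.53 in the KO clone and -0.02 in the control clone. Chromosome 13 had opposite medians, 0.12 and -0.20, and its 20 shared genes were all lower even so. Chromosome 16 stood at -0.29 in the KO clone and 0.06 in the control clone, chromosome 12 at 0.02 and 0.29, and chromosome 19 at 0.02 and -0.15. Chromosome 15 was slightly raised in both, at 0.09 and 0.13. Chromosome 10 was lower in both by similar amounts, at -0.06 and -0.09, with 29 lowered and 8 raised genes of 616. Chromosome 2 stood at -0.08 and -0.03, and chromosome 4 was raised in both, at 0.08 and 0.05. In all 6 clone libraries the median was below the parental mean on chromosomes 1, 2, 9 and 10 and above it on chromosomes 4, 5, 12, 14, 15, 17 and 18. DNA copy number was not measured, and no test was made of these shifts.

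**Figure D5:**
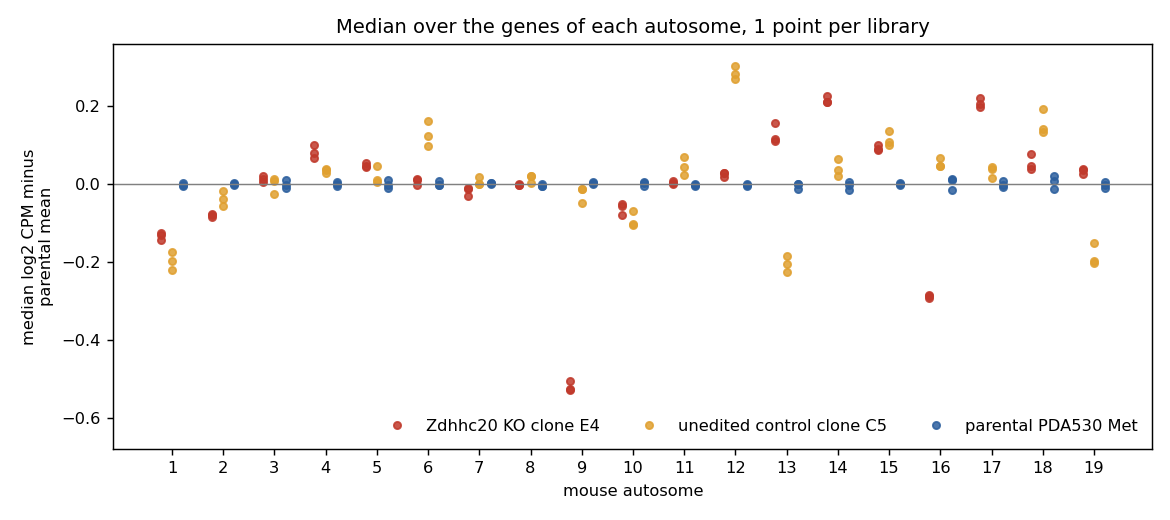
Median over the tested genes of each autosome of log2 CPM minus the parental mean, 1 point per library, red for the KO clone, yellow for the control clone and blue for the parental line. Chromosome 1 is below 0 in all 6 clone libraries, chromosome 9 in all 6 and far more so in the KO clone, and chromosome 16 below 0 in the KO clone and above 0 in the control clone, and the parental libraries lie next to 0 throughout.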

How the data were processed

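RNA of the 9 libraries was sequenced after an mRNA library kit, per the labels' protocols. The authors deposited 1 table of expected counts per gene; its values were whole, and rounding changed none. STAR 2.5.2, RSEM 1.3.0, DESeq2 1.10.1 and GRCm38 are named in the submitters' processing notes, without roles; the annotation release and the use of strand are not given in the sources used here. Chromosomes, coordinates and overlaps came from GENCODE M21 (GRCm38), which matched 54809 of 54838 identifiers. Genes were filtered with filterByExpr (minimum count 10, total 15), scaled by TMM and fitted with edgeR 4.0.16 in R 4.3.3 (glmQLFit, glmQLFTest), all 9 libraries in 1 fit of 3 groups, with Benjamini-Hochberg adjustment over all 13153 tested genes. Fold changes against a clone with 0 counts are bounds against a floor of 3 counts over that group; with 1 to 3 counts the ratio has an exact 95% binomial interval. Named genes follow the ranking rule in the text, plus list members shared at 2-fold, list members where a count of 5 or fewer is given, and those marked as picked after seeing values. A few genes that met these rules are not reported here. The members and lists were chosen with earlier results of these data known. Alternatives used limma 3.58.1 (voom), DESeq2 1.42.0, other scalings and filters, the replicate block and left-out libraries. The fit was also run on simulated counts that had the same change in both clones and no spread between clones. There it called as shared 24.5% of 1.5-fold, 62.5% of 2-fold and 98.0% of 4-fold changes, and 1 unchanged gene. That run cannot speak to differences between clones.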

Additional observations from a re-analysis of the deposited data

Results flagged for a closer look

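Among the ranked genes and the list members changed at least 2-fold in both clones, 11 differed in size of change between them. The genes examined numbered 33 with Zdhhc20, which was added to check the labels. The comparison was edgeR's quasi-likelihood test of the KO clone against the control clone. All 11 kept 1 direction against the parental line in both clones. Lower in the KO clone than in the control clone were Car12 (adjusted p = 0.00984), Slc16a10 (adjusted p = 0.0161), Cspg4 (adjusted p = 0.000229), Mgst1 (adjusted p = 0.00752), Arsb (adjusted p = 0.000120), Twist1 (adjusted p = 0.00316) and Ttr (adjusted p = 0.0422). Lower in the control clone were Ptpn13 (adjusted p = 0.000730), Cftr (adjusted p = 0.00668) and Egr2 (adjusted p = 0.00211). Hpcal4 was raised further in the control clone (adjusted p = 0.000584; the KO clone minus the control clone was -1.22 on the log2 scale, SE 0.18). Over all autosomal genes this comparison called 42.8%.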

How the results depend on the processing

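Leaving out 1 library gave 1162 to 4201 genes in the mean contrast, 355 to 1355 shared genes and 189 to 342 shared genes at 2-fold. The mean contrast called 1499, 1246 and 1162 genes without parental replicates 1, 2 and 3, and 4201 without control replicate 3; the shared genes numbered 404, 380 and 355 without the same parental libraries, 476 without KO replicate 1 and 1355 without control replicate 3. With both clones pooled as 1 group of 6, 305 genes were called (97 higher, 208 lower), all among the 730; 21 of the 24 ranked genes remained, and Arsb, Tigit and Rnd1 did not, nor did App and Bicc1. Of the 43 shared list members 17 were called in that fit; Egr1, Ier2, Twist1, Sparc and Fzd6 were among those not called. A minimum mean of 5 CPM left 57 shared genes at 2-fold (42 lower, 15 higher). DESeq2 gave 906 shared genes and limma voom 730. The same replicate number did not pair libraries across groups (correlations of deviations -0.134 to 0.212 over 9 pairs); with the replicate block the counts were 2263, 639 and 239. The cause of these shifts was not tested. No ranked gene or list member named for a 2-fold change reversed direction under any alternative. Over all alternatives, the pooled fit and the fits of each clone alone included, 14 of 43 shared list members, 11 of 12 ranked lowered genes and 9 of 12 ranked raised genes kept their call. Settings other than left-out libraries and those 2 fits also ended, beside the losses of Tigit, Rnd1 and Pmaip1 given above, the call of Smad9 (DESeq2), Sema3e, Ltbp4, Pkp3 and Jag1 (no filter), Gclc and Lgr4 (mean of 5 CPM), Fgfbp1 and Mmp10 (limma voom), and, under the block, Tigit, Rnd1, Fgfbp1, Cflar, Egr2, Pkp3, Pdgfc, Hes1 and Jag1. With 3 libraries of 1 clone each, neither the spread between clones nor DNA copy number could be measured.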

Other observations

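The same contrast hides genes that went opposite ways: of the 403 called in opposite directions, 167 were higher in the KO clone and lower in the control clone, and 236 the reverse, and 48 were called in the mean contrast. Both comparisons use the same parental libraries. Muc5ac, a secreted gel-forming mucin, was at 0.0977, 0.0556 and 0.117 CPM in the KO clone and 139, 111 and 43.5 CPM in the control clone. Parental values were 9.73, 8.37 and 11.4 CPM. Timp3, an inhibitor of matrix metalloproteinases whose gene overlaps Syn3, was at 2.88, 3.12 and 2.74 CPM in the KO clone and 41.5, 51 and 58.5 CPM in the control clone. Parental values were 9.59, 11 and 10.8 CPM. In the other direction Has2, a hyaluronan synthase whose gene overlaps Has2os, was at 19.7, 12.8 and 16.8 CPM in the KO clone and 0.131, 0.357 and 0.105 CPM in the control clone. Parental values were 1.20, 0.825 and 0.471 CPM. Myh10, a non-muscle myosin heavy chain, was at 102, 100.3 and 99.1 CPM in the KO clone and 7.81, 11 and 7.35 CPM in the control clone. Parental values were 32.3, 26.7 and 25 CPM. These 4 were chosen after their values were seen, from 66 protein-coding genes that changed at least 2-fold in both clones and reached 5 CPM in at least 1 group.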
